A study of Mus musculus with 7 samples.

Results

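Binding of the vitamin D receptor (VDR) was described around 10 mouse genes of dietary fat absorption and lipoprotein assembly: Npc1l1, Fabp1, Fabp2, Mogat2, Dgat1, Mttp, Apob, Apoa1, Apoc3 and Apoa4. The genes were listed by name, among 22367 protein-coding genes, and every VDR peak with its centre within 50 kb of a gene body was taken. Such peaks formed 112 of the 87029 regions obtained by merging overlapping peaks of all libraries. Since Apoa1, Apoc3 and Apoa4 lie side by side on chromosome 9 and share most of their peaks, the 10 genes stand for 8 independent loci.

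The peaks come from chromatin immunoprecipitation with sequencing (ChIP-seq), using an anti-VDR antibody on epithelial cells released with EDTA from the duodenum and jejunum. One group of wild-type mice on standard chow, 8 weeks old, was given 1,25(OH)2D3, the active vitamin D hormone, at a dose of 10 ng for each g of body weight, and the other was given vehicle; tissue was taken 1 h later in both. Each group has 3 libraries, and separate animals are not stated for them, so a p-value here speaks of the spread between libraries, which may be technical. The EDTA step releases all epithelial cell types together, and a peak list gives no means of checking the cells against their marker genes.

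Sequencing gave 17152461, 17438643 and 66524392 tags for 1,25(OH)2D3 replicates 1, 2 and 3, against 19733260, 15991198 and 68560701 for vehicle replicates 1, 2 and 3. Replicate 3 is therefore the deep library of each group, and replicates 1 and 2 are called shallow here. The lists held 25510, 30390 and 41722 peaks with 1,25(OH)2D3 and 8756, 14888 and 48425 with vehicle, and the share of tags inside peaks was 11.86, 15.89 and 18.96% with 1,25(OH)2D3 against 2.58, 4.81 and 8.10% with vehicle. Vehicle replicate 3 stands apart, since 32166 of its regions occurred in no other library. The total, the share and the hormone-only count are also given without it.

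In the proximal intestine, fat digestion leaves fatty acids, monoacylglycerol and cholesterol, which enterocytes take up, re-esterify to triglyceride and cholesteryl ester, and load onto apolipoprotein B for secretion as chylomicrons. VDR is a nuclear receptor that, with its partner RXR, binds direct repeats of a hexamer separated by 3 bases, the DR3 element. It is best known in this tissue for the control of calcium absorption genes.

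The sequences below are the 201 bases around the centres of 10 regions on which the later results turn. At least 1 region is given for each of the 8 loci, and they were chosen after their values were seen. All are from mm9, plus strand, 5′ to 3′, and capitals mark the best match to the DR3 element on either strand.
Npc1l1, 13.1 kb upstream (chr11:6143124-6143324): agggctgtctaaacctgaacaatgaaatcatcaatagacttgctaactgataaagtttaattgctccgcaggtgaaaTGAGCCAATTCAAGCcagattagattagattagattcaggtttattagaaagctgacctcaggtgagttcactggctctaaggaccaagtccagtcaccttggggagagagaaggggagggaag
Fabp2, 15.9 kb upstream (chr3:122581974-122582174): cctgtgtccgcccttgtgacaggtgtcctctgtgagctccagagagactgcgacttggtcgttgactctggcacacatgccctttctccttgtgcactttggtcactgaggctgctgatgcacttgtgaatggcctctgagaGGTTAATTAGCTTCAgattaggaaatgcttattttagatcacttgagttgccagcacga
Fabp1, 36.8 kb downstream (chr6:71186553-71186753): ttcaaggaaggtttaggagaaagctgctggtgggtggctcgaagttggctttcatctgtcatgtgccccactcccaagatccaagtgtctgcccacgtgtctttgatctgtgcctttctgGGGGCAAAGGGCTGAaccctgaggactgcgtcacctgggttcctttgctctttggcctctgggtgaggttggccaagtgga
Mogat2, 8.4 kb downstream (chr7:106378603-106378803): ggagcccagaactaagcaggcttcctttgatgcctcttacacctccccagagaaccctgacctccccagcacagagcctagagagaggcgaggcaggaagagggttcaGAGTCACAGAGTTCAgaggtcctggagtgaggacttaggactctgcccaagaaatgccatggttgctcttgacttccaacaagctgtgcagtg
Mogat2, 11.7 kb downstream (chr7:106375370-106375570): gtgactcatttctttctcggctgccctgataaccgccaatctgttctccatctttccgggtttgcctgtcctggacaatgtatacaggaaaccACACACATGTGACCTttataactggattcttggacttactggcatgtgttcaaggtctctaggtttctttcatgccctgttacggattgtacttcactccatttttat
Dgat1, 1.3 kb downstream (chr15:76340986-76341186): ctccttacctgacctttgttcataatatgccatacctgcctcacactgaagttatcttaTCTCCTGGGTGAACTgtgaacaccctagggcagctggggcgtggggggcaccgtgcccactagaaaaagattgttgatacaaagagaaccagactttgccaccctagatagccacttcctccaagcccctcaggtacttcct
Mttp, 21.6 kb downstream (chr3:137784603-137784803): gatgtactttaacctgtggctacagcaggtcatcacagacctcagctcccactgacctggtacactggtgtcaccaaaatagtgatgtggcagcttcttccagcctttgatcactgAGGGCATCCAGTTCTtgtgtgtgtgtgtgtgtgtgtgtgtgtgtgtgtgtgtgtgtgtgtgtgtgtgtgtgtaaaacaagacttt
Apob, 34.7 kb downstream (chr12:8019070-8019270): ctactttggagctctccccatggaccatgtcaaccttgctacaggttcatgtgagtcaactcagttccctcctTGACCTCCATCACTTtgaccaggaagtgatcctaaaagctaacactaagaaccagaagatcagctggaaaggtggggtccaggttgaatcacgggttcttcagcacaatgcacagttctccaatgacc
Apoa1, 1.3 kb upstream (chr9:46035233-46035433): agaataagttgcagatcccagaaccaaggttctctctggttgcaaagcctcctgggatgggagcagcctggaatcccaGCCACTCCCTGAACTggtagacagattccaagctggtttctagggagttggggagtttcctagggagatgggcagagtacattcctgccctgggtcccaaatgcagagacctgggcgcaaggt
Apoa4, 1.8 kb upstream (chr9:46046915-46047115): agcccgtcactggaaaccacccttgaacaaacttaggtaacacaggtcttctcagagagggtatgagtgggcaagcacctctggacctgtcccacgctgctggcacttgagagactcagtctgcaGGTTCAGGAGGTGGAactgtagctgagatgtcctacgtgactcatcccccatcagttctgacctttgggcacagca
The capitals differ from the DR3 consensus at 1 base in the Mogat2 region 8.4 kb downstream and in the Dgat1, Apob and Apoa4 regions, and at 2 bases in the other regions printed. In the Mttp intron the element is followed by a long run of TG repeats. The Apob stretch lies wholly inside coding sequence, and the other printed stretches hold no coding bases.

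Over the 10 genes together, more VDR peaks were listed after 1,25(OH)2D3, but the groups overlapped. The 1,25(OH)2D3 libraries had 53, 74 and 78 peaks within 50 kb of the genes and the vehicle libraries 23, 40 and 55. The lowest 1,25(OH)2D3 library thus fell just under the deep vehicle library. The mean was 68.3 ± 13.4 with 1,25(OH)2D3 and 39.3 ± 16.0 with vehicle (SD, n = 3 each), a difference of 29.0 peaks (exact two-sided permutation p = 0.2, where 0.1 is the smallest that 3 against 3 can give). Among the shallow libraries the means were 63.5 with 1,25(OH)2D3 and 31.5 with vehicle, and the deep libraries had 78 and 55. Without vehicle replicate 3 the difference was 36.8 peaks. The share of tags in peaks was also higher in every 1,25(OH)2D3 library, and the shallow lists were longer with hormone; the part of either in this difference was not tested. When every list was cut to its first 8756 entries, the length of the shortest, the means were 30.7 with 1,25(OH)2D3 and 30.0 with vehicle (exact permutation p = 0.9). The cut relies on the order of the lists, whose ranking value the files do not state.

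**Figure D1:**
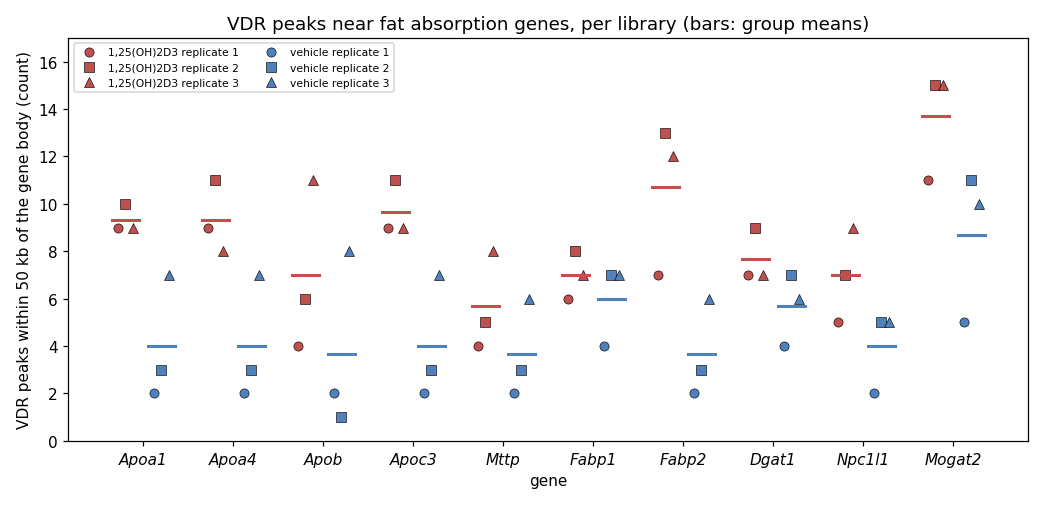
Number of VDR peaks with centre within 50 kb of each gene body (vertical axis, count) for the 10 genes (horizontal axis), with 1,25(OH)2D3 libraries in red left of vehicle libraries in blue. Symbols are single libraries (triangles: the deep replicate 3) and bars are group means. Red and blue points do not overlap at Apoa1, Apoa4, Apoc3 and Fabp2.

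As a share of each list, peaks near these genes did not separate the groups. The share was 0.208, 0.244 and 0.187% of all peaks in 1,25(OH)2D3 replicates 1, 2 and 3, against 0.263, 0.269 and 0.114% in vehicle replicates 1, 2 and 3. The 95% Wilson intervals, which cover counting error only, ran from 0.150 to 0.306% over the 1,25(OH)2D3 libraries and from 0.0873 to 0.394% over the vehicle libraries. The low value belongs to vehicle replicate 3. Of the 32166 regions found in that library only, 11 were near these genes, against 12 of the 12736 found in 1,25(OH)2D3 replicate 3 only. The means were 0.213% with 1,25(OH)2D3 and 0.215% with vehicle (exact two-sided permutation p = 1.0), and 0.213% against 0.266% without vehicle replicate 3.

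The genes carried more peaks than most genes in both groups. They averaged 7.1, 9.5 and 9.5 peaks per gene in the 1,25(OH)2D3 libraries and 2.7, 4.6 and 6.9 in the vehicle libraries, while all protein-coding genes averaged 2.58, 3.06 and 3.97 with 1,25(OH)2D3 and 0.895, 1.48 and 3.43 with vehicle. The ratio of the first mean to the second was 2.75, 3.10 and 2.39 with 1,25(OH)2D3 and 3.02, 3.10 and 2.01 with vehicle, the lowest being that of vehicle replicate 3. It averaged 2.75 ± 0.355 with 1,25(OH)2D3 and 2.71 ± 0.607 with vehicle (SD, n = 3 each), a difference within the spread between libraries (exact permutation p = 0.8). The median of the mean peak number was 8.5 with 1,25(OH)2D3 and 4 with vehicle over the 10 genes, beside 2.33 and 1.33 over all protein-coding genes. Neighbouring genes share peaks, and gene length and spacing were not matched in this comparison.

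For 4 of the 10 genes, Apoa1, Apoc3, Apoa4 and Fabp2, every 1,25(OH)2D3 library had more peaks than any vehicle library, and the reverse held for none. These 4 genes are 2 loci, and the count was 0 with lists of equal length, 1 when only peaks nearest to a listed gene's start were counted and 2 with a 10 kb window. Over all protein-coding genes, 16.0% had more peaks in every 1,25(OH)2D3 library and 0.0447% had fewer. With 3 libraries a group no single gene can pass a test adjusted over all genes: the share called at an adjusted p of 0.05 was 0.00% (exact permutation, Benjamini-Hochberg), and 0 genes had an unadjusted p under 0.05.

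**Figure D2:**
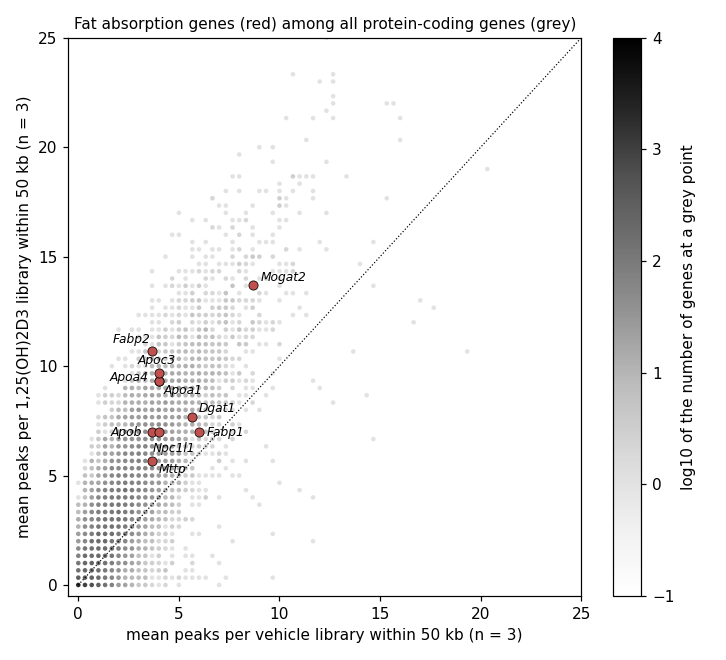
Mean number of VDR peaks within 50 kb per 1,25(OH)2D3 library (vertical axis, n = 3) against the mean per vehicle library (horizontal axis, n = 3), for all protein-coding genes (grey, darker where more genes coincide) and the fat absorption genes (red). The dotted line marks equal means, and 11 genes lie beyond the axis limit of 25. All 10 red points are above the line, as are most protein-coding genes, and lie between 5.67 (Mttp) and 13.7 (Mogat2) on the vertical axis. The median difference between the means was 4.17 peaks over the 10 genes and 0.667 over all protein-coding genes. Apoa1, Apoc3 and Apoa4 share most of their peaks.

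Of the cholesterol and fatty acid uptake genes, Npc1l1, Fabp1 and Fabp2, the intestinal fatty acid binding protein gene Fabp2 was the one whose groups did not overlap. Npc1l1 (ENSMUSG00000020447.4, chromosome 11, 6111016 to 6130146, minus strand) encodes the brush border cholesterol importer that ezetimibe blocks. It had 5, 7 and 9 peaks in the 1,25(OH)2D3 libraries and 2, 5 and 5 in the vehicle libraries, so the groups met at 5. One region, 13.1 kb upstream and between genes (6143039 to 6143409), was in all 6 libraries, at list percentiles from 83.5 to 95.5. A list percentile is the place of a peak in the authors' list, 100 being the first entry. It is not a measured occupancy, and places in lists of different lengths show no change between groups. A neighbouring region 22.8 kb upstream (6152826 to 6153136) was in every library but vehicle replicate 1, and it lies closer to the start of Ddx56, an RNA helicase gene. The pair of regions found in every 1,25(OH)2D3 library but in no vehicle library were farther away, in an exon of Tmed4 (6173569 to 6173921) and in an intron of Nudcd3 (6067406 to 6067782). Within 2.9 kb upstream of the Npc1l1 start there were single-library peaks from 1,25(OH)2D3 replicates 2 and 3 only.

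Fabp1 (ENSMUSG00000054422.7, chromosome 6, 71149821 to 71155017, plus strand), the liver-type fatty acid binding protein, differed little between groups. It had 6, 8 and 7 peaks with 1,25(OH)2D3 and 4, 7 and 7 with vehicle. A total of 3 of its 14 regions were in all 6 libraries: one between genes 26.6 kb upstream (71122991 to 71123412), and a pair 33.0 and 49.9 kb downstream in introns of Smyd1, a muscle histone methyltransferase gene. Between that pair, 36.8 kb downstream (71186494 to 71186812), lay the region with the highest mean list percentile of the 5 that every 1,25(OH)2D3 library and no vehicle library held, called hormone-only here. It was at percentiles 91.4, 93.6 and 94.8 in 1,25(OH)2D3 replicates 1, 2 and 3 and absent from all 3 vehicle libraries. Close to it, 36.2 kb downstream (71185874 to 71186134), vehicle replicate 2 alone had a peak, at percentile 49.7. The hormone-only region and the one 49.9 kb downstream lie nearer to the start of Krcc1 than to that of Fabp1. The Fabp1 start itself, at 46 bp, was covered in 1,25(OH)2D3 replicates 2 and 3 and in vehicle replicate 2.

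Fabp2 (ENSMUSG00000023057.5, chromosome 3, 122597990 to 122602424, plus strand) had 7, 13 and 12 peaks with 1,25(OH)2D3 and 2, 3 and 6 with vehicle, so every 1,25(OH)2D3 library was above every vehicle library. The mean was 10.7 ± 3.21 with 1,25(OH)2D3 and 3.67 ± 2.08 with vehicle (SD, n = 3 each), the widest gap of the 10 genes with full lists and the 50 kb window. With lists of equal length the difference at Fabp2 was 0.333 peaks, against 2.67 at Apoc3, and with a 10 kb window both were 2.67. None of its 16 regions was hormone-only by the rule of 3 against 0. Regions 15.9 kb upstream (122581891 to 122582257) and 3.3 kb downstream in an intron (122601102 to 122601449) were in all 6 libraries. The region over the start, centred at 312 bp (122598081 to 122598522), was in all 3 1,25(OH)2D3 libraries and in the deep vehicle library only. Between 4.9 and 7.4 kb upstream, 3 further regions were in 1,25(OH)2D3 replicates 2 and 3 and in no vehicle library.

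**Figure D3:**
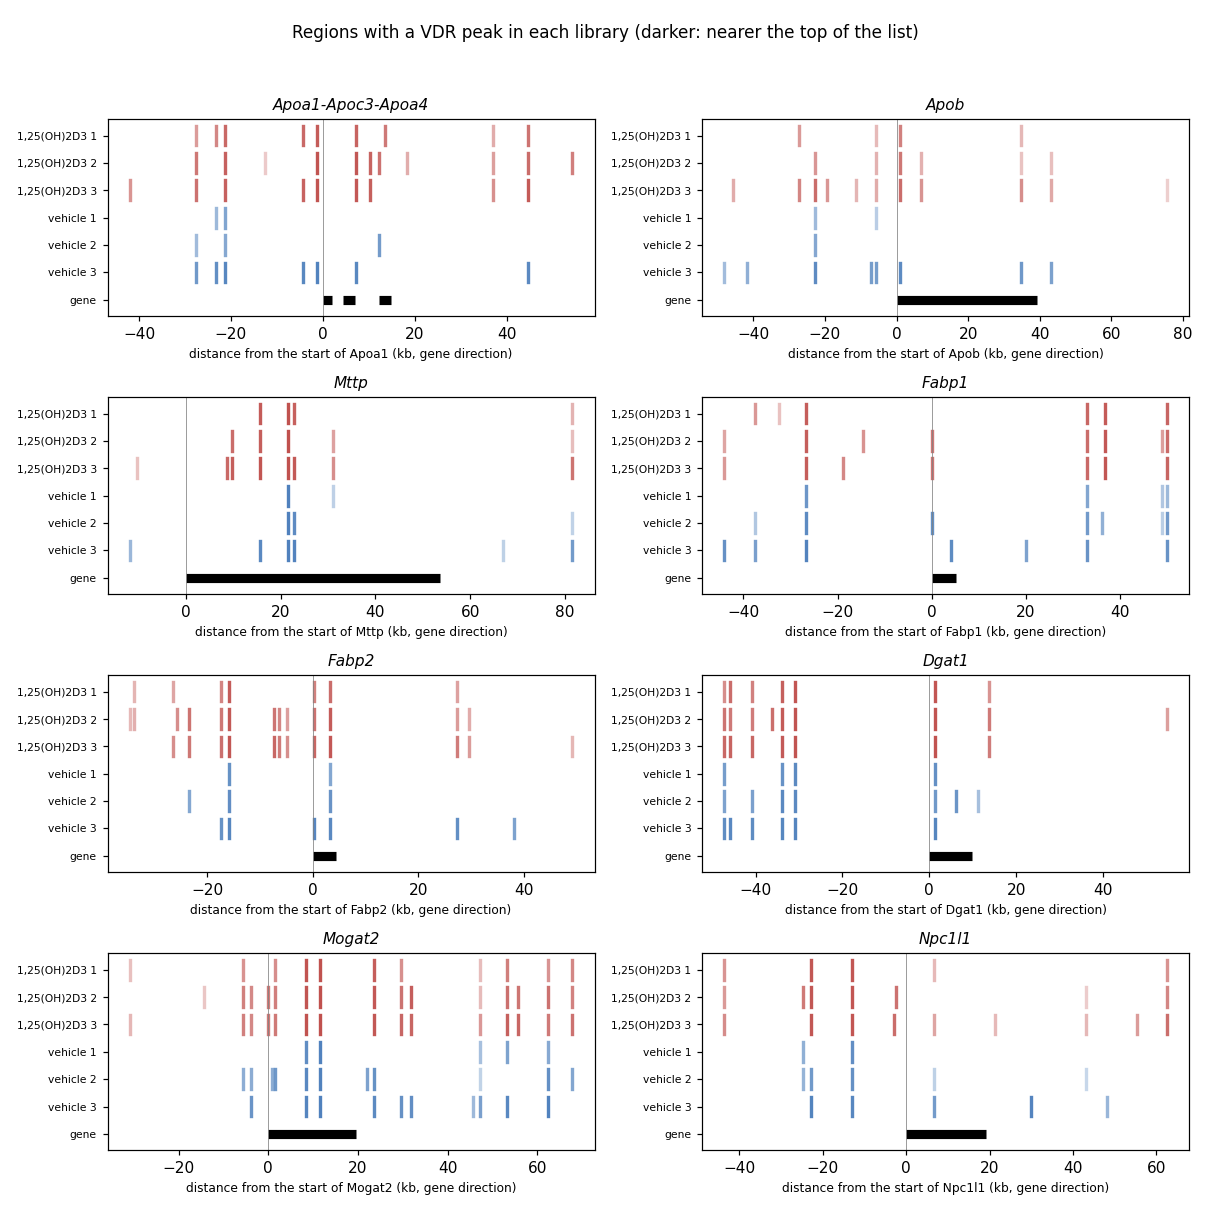
Regions with a VDR peak (vertical ticks) at the 8 loci, 1 row per library with 1,25(OH)2D3 libraries above vehicle libraries, against the distance in kb from the start of the named gene in its own direction (horizontal axis). Darker ticks are nearer the top of the list, and black bars are the bodies of the listed genes. At Fabp2 and at the Apoa1, Apoc3 and Apoa4 cluster, the rows of vehicle replicates 1 and 2 hold 2 or 3 ticks each, against 7 to 13 in the 1,25(OH)2D3 rows. The row of the deep vehicle replicate 3 holds 6 at Fabp2 and 7 at the cluster.

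The 50 kb windows of the genes of triglyceride resynthesis, Mogat2 and Dgat1, held 8 of the 16 regions found in all 6 libraries. Some of the 8 lie nearer to the start of another gene, as given below. Mogat2 (ENSMUSG00000052396.7, chromosome 7, 106367594 to 106387129, minus strand), which makes diacylglycerol from absorbed monoacylglycerol, had 11, 15 and 15 peaks with 1,25(OH)2D3 and 5, 11 and 10 with vehicle. The groups met at 11. It had the highest mean of the 10 genes in both groups, at 13.7 ± 2.31 with 1,25(OH)2D3 and 8.67 ± 3.21 with vehicle (SD, n = 3 each), and 99.1% of protein-coding genes had a lower mean with 1,25(OH)2D3. An intronic region 11.7 kb downstream (106375301 to 106375639) was at percentile 98.3 or above in all 6 libraries, and a second one 8.4 kb downstream (106378514 to 106378891) was at 87.6 or above. The 10 regions in all 3 1,25(OH)2D3 libraries include 5 that lie nearer to the start of Dgat2, which encodes a second diacylglycerol acyltransferase, than to that of Mogat2. Of these 5, those 62.4 and 47.2 kb downstream were in all 6 libraries. At the Mogat2 start, a region 148 bp upstream (106387117 to 106387437) was in 1,25(OH)2D3 replicates 2 and 3 only. Another, 787 bp downstream (106386212 to 106386472), was in vehicle replicate 2 only, at percentile 54.1.

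Dgat1 (ENSMUSG00000022555.5, chromosome 15, 76332445 to 76342381, minus strand), the enzyme of the last step of triglyceride synthesis, had 7, 9 and 7 peaks with 1,25(OH)2D3 and 4, 7 and 6 with vehicle, overlapping at 7. Its intronic region 1.3 kb downstream (76340914 to 76341258) was in all 6 libraries, at percentiles 95.1, 97.0 and 97.8 with 1,25(OH)2D3 and 83.9, 74.8 and 94.8 with vehicle. The other 3 regions in all 6 libraries form a group between 30.8 and 47.2 kb upstream, closer to the starts of Gpr172b and Adck5. All 7 Dgat1 regions present in every 1,25(OH)2D3 library held a DR3 match with at most 2 mismatches, against 64.7% of all such regions. The same held for all 4 at Npc1l1 and at no other locus. The hormone-only region, 13.7 kb downstream (76328545 to 76328901), lies in an intron of Hsf1, the heat shock transcription factor gene.

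The genes of chylomicron assembly, Mttp and Apob, had 1 and 0 regions in all 6 libraries. Npc1l1 and the Apoa1, Apoc3 and Apoa4 cluster also had 1 each. Mttp (ENSMUSG00000028158.8, chromosome 3, 137752819 to 137806352, minus strand) encodes the microsomal triglyceride transfer protein, which loads lipid onto apolipoprotein B. It had 4, 5 and 8 peaks with 1,25(OH)2D3 and 2, 3 and 6 with vehicle. One intronic region 21.6 kb downstream (137784544 to 137784862) stood at percentiles 99.1, 99.6 and 98.4 with 1,25(OH)2D3 and 99.5, 99.7 and 99.6 with vehicle, the highest mean place of the 112 regions. A second intronic region 15.7 kb downstream (137790470 to 137790869) was in all 3 1,25(OH)2D3 libraries, at 88.3 to 95.3, and of the vehicle libraries only in the deep one, at 91.6. No peak centre lay within 1 kb of the annotated Mttp start.

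Apob (ENSMUSG00000020609.8, chromosome 12, 7984454 to 8023641, plus strand), the structural protein of chylomicrons, was the only one of the 10 genes without a region in all 6 libraries. It had 4, 6 and 11 peaks with 1,25(OH)2D3 and 2, 1 and 8 with vehicle, and both deep libraries held more than the shallow libraries of their group. The region near its start, centred at 993 bp (7985232 to 7985662), was at percentiles 62.5, 69.9 and 77.7 in the 1,25(OH)2D3 libraries, absent from the shallow vehicle libraries and at 89.8 in the deep one. A region 34.7 kb downstream (8018944 to 8019396) had the same presence pattern and sits in coding sequence near the start of a shorter annotated transcript. The region 22.7 kb upstream (7961502 to 7961930) was the only one of the 112 found in all 3 vehicle libraries but not in all 3 1,25(OH)2D3 libraries. It was absent from 1,25(OH)2D3 replicate 1 and present at 45.9 and 78.1 in replicates 2 and 3.

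The apolipoprotein cluster on chromosome 9 holds Apoa1 (ENSMUSG00000032083.8, 46036663 to 46038549, plus strand), the main protein of high-density lipoprotein, Apoc3 (ENSMUSG00000032081.3, 46041016 to 46043719, minus strand), an inhibitor of triglyceride clearance, and Apoa4 (ENSMUSG00000032080.6, 46048779 to 46051542, plus strand), a chylomicron protein made mainly in the intestine. Apoc3 and Apoa4 are transcribed away from each other. Apoa1 had 9, 10 and 9 peaks with 1,25(OH)2D3 and 2, 3 and 7 with vehicle, and the counts of its neighbours, which share the peaks, were within 1 peak of these. Every 1,25(OH)2D3 library was above every vehicle library at each of the 3 genes. Apoc3 averaged 9.67 ± 1.15 with 1,25(OH)2D3 and 4.00 ± 2.65 with vehicle (SD, n = 3 each).

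The regions closest to the Apoa1 and Apoc3 starts were absent from both shallow vehicle libraries, while the one over the Apoa4 start was in 1 library of each group. The region 1.3 kb upstream of Apoa1 (46035160 to 46035505) stood at 91.0, 97.2 and 97.1 in 1,25(OH)2D3 replicates 1, 2 and 3, was absent from vehicle replicates 1 and 2 and stood at 97.7 in vehicle replicate 3. The region over the Apoc3 start, centred 90 bp upstream (46043634 to 46043983), was at 84.8, 94.1 and 93.5 with 1,25(OH)2D3, absent from vehicle replicates 1 and 2 and at 92.6 in vehicle replicate 3. The region over the Apoa4 start, centred at 193 bp (46048828 to 46049116), was in 1,25(OH)2D3 replicate 2 at 73.6 and in vehicle replicate 2 at 72.3. Between Apoc3 and Apoa4, 1.8 kb upstream of Apoa4 (46046858 to 46047171), a region was in 1,25(OH)2D3 replicates 2 and 3 and in no vehicle library. The single region in all 6 libraries was 21.3 kb upstream of Apoa1 (46015179 to 46015607), in an intron of the kinase gene Sik3. The hormone-only region (46073533 to 46073846) lay 3.0 kb upstream of Apoa5, a further apolipoprotein gene of the cluster, at percentiles from 29.2 to 50.6.

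**Figure D4:**
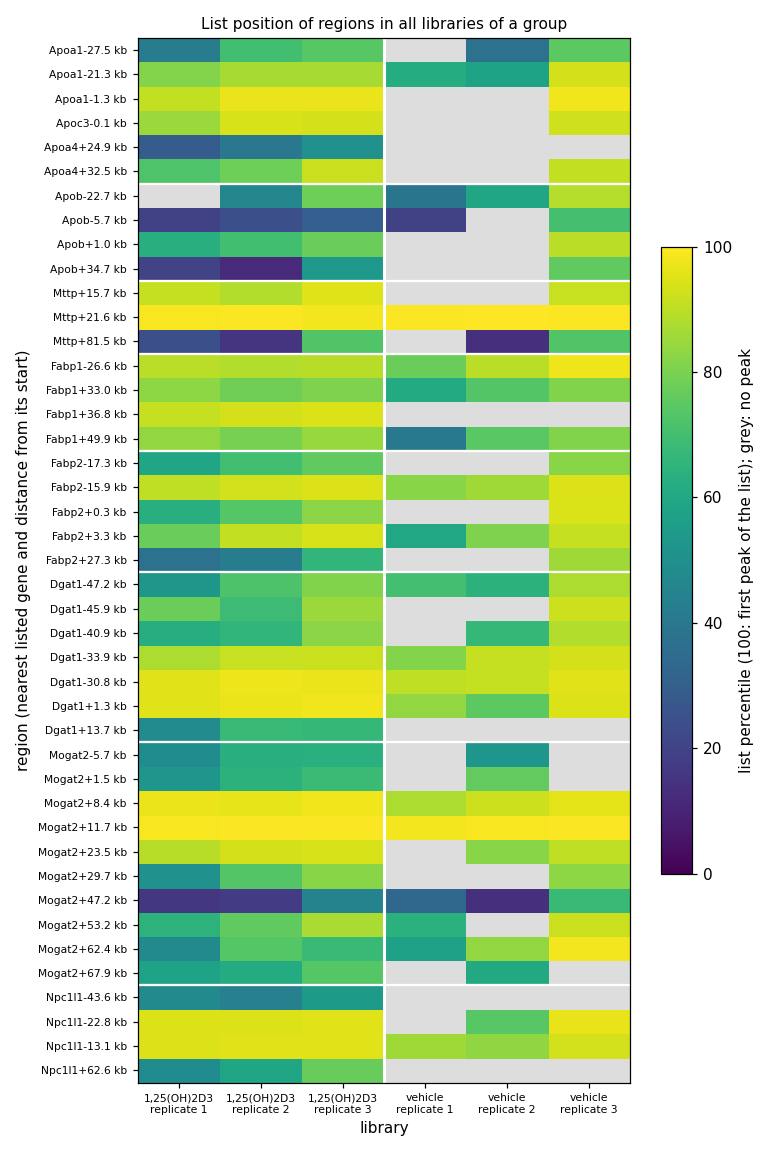
List percentile (colour, 100 for the first entry of a library's list) of the 43 regions present in all 3 libraries of at least 1 group, with regions on the vertical axis ordered by locus and libraries on the horizontal axis, 1,25(OH)2D3 left of vehicle. Grey cells have no peak. The Mttp region at 21.6 kb and the Mogat2 region at 11.7 kb are at 98.3 or above in every library, while those near the starts of Apoa1, Apoc3, Apob and Fabp2 are grey in vehicle replicates 1 and 2 alone.

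The loci differed in how many regions the libraries shared: regions in all 6 libraries numbered from 0 at Apob to 4 each at Dgat1 and Mogat2. Of the 112 regions, 42 were in all 3 1,25(OH)2D3 libraries, against 20.5% of all regions, and 17 were in all 3 vehicle libraries, against 5.33%. A total of 40 were in 1 library only, against 62.6%. These backgrounds contain the many regions that vehicle replicate 3 alone contributes, 37.0% of all regions and 11 of the 112 here. Within the regions present in all 3 1,25(OH)2D3 libraries, 16 of 42 (38.1%) were in all 6 libraries, against 24.3% of all such regions. Hormone-only regions made up 5 of the 42 (11.9%), against 26.2%, and 21 of the 42 had 1 or 2 vehicle libraries, against 49.5%. Out of all regions, hormone-only ones were 4.46% near the genes and 5.39% in the whole series, and regions in all 6 libraries were 14.3% and 4.99%. None of the 112 was in all 3 vehicle and no 1,25(OH)2D3 library, a pattern of 0.0299% of all regions. The share of hormone-only regions is thus near or under its background.

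The counts differed between the shallow and the deep libraries. A total of 11 of the 42 regions (26.2%) had vehicle replicate 3 as their only vehicle library, against 16.1% of the regions present in all 3 1,25(OH)2D3 libraries and 3.30% of all regions. Among shallow libraries, 17 of the 112 had a peak in both libraries given hormone and in neither given vehicle, against 9.90% of all regions, and 0 were the other way round, against 0.232%. Between the deep libraries, 36 of the 112 were with 1,25(OH)2D3 only, against 31.0% of all regions, and 13 were with vehicle only, against 38.7%. Leaving out vehicle replicate 3 took the hormone-only count of 5 to 16. The count was 14 without 1,25(OH)2D3 replicate 1, 8 without 1,25(OH)2D3 replicate 2 and 8 without vehicle replicate 2. Without vehicle replicate 3 the hormone-only count over all regions, 4687, also rises. It gains the 2874 regions in all 3 1,25(OH)2D3 libraries whose only vehicle library was replicate 3. Shares of all regions under these omissions are not given, so the counts have no background here. A peak absent from a shallow library cannot be told apart from binding under its calling threshold.

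**Figure D5:**
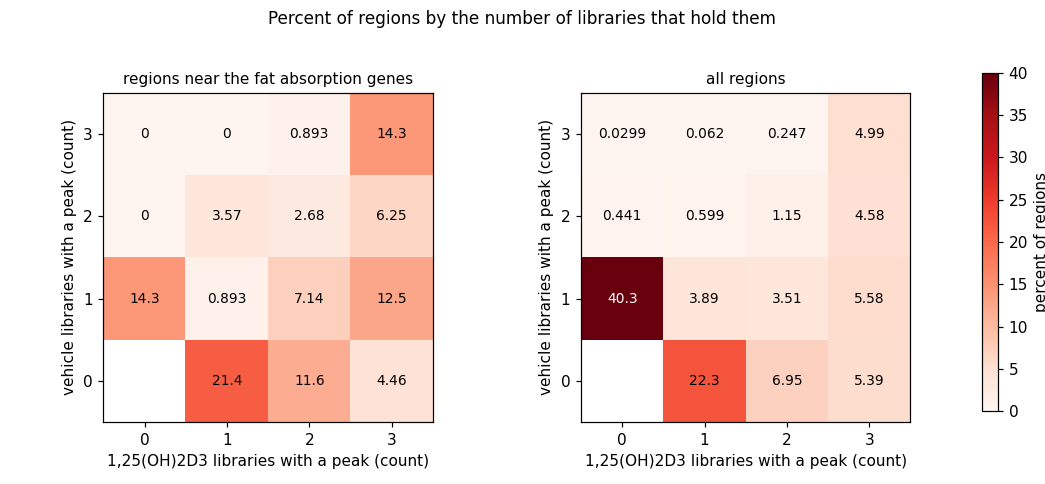
Percent of regions (colour and printed value) by the number of 1,25(OH)2D3 libraries (horizontal axis) and of vehicle libraries (vertical axis) with a peak, for the 112 regions near the fat absorption genes (left) and all 87029 regions (right). The corner of all 6 libraries holds 14.3% on the left and 4.99% on the right, and the cell of 1 vehicle and no 1,25(OH)2D3 library 14.3% and 40.3%.

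Of the 70 regions with a peak in any vehicle library, 16 had none in any 1,25(OH)2D3 library, each of them in 1 vehicle library only. Among them were regions 4.1 kb downstream of the Fabp1 start, 6.2 kb downstream of the Dgat1 start and 7.2 kb upstream of the Apob start. In the whole series, 35064 of the 56892 regions with a vehicle peak were in 1 vehicle library and no other library. Vehicle replicate 3 alone gave 32166 of those. All 23 regions of vehicle replicate 1 were in at least 1 1,25(OH)2D3 library, while 12.1% of all its regions were in none. Of the 23, 18 (78.3%) were in all 3, against 71.0% of all its regions. For vehicle replicate 2, 24 of 40 (60.0%) were in all 3, against 60.5% of all its regions. In none were 5 (12.5%), against 16.0% of all its regions. For vehicle replicate 3, 34 of 55 (61.8%) were in all 3, against 22.0% of all its regions. In none were 11 of the 55, against 67.0% of all its regions.

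By gene, all 10 had a region in all 3 1,25(OH)2D3 libraries within 50 kb, against 61.1% of protein-coding genes. All but Apob, 9 of 10, had one in all 6 libraries, against 29.1%, and 6 of 10 had a hormone-only region, against 33.2%. Those 6 are Npc1l1, Fabp1, Dgat1 and the 3 genes of the cluster, which share 1 region. A region present in all 3 1,25(OH)2D3 libraries was centred within 1 kb of the gene start at Apoc3, Fabp2 and Apob, 3 of 10, against 9.51% of protein-coding genes. Most regions lay away from starts: of the 42, 5 were within 1 kb of an annotated start, 17 in introns, 1 in an exon and 19 between genes, and in 23 the nearest protein-coding start was that of a listed gene. The 16 regions in all 6 libraries were in introns (9) or between genes (7).

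The DR3 element was about as frequent here as in VDR regions elsewhere. Among the 42 regions shared by the 1,25(OH)2D3 libraries, 30 (71.4%) had a match with at most 2 mismatches within 100 bp of the centre, against 64.7% of all such regions and 35.6% of equal windows 5 kb away. Over the 112 regions the share was 54.5%, against 46.0% of all regions. With at most 1 mismatch it was 7 of 42 (16.7%), against 21.7% of all such regions and 4.44% of the windows 5 kb away. The best match in the Apob region at its start had 4 mismatches, and those at the Fabp2 start and in the Mttp intron 15.7 kb downstream had 3. Other motifs of intestinal and general factors were searched on both strands in the same windows. CAAAGTCCA with at most 1 mismatch (HNF4) was in 6 of the 42 (14.3%), against 20.5%. The GATA factor motif AGATAAG was in 3 (7.14%), against 8.94%. The AP-1 motif TGANTCA was also in 3, against 13.0%. The CDX2 motif TTTATGG was in 0 of the 42, against 4.47%. These shares were not tested, and a match is a description of letters only.

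Most other genes of the pathway, like most protein-coding genes, had more VDR peaks on average with 1,25(OH)2D3 than with vehicle. For most of these pathway genes the groups overlapped. Of 54 other genes of fat digestion, triglyceride handling and lipoprotein metabolism, 13 (24.1%) had more peaks in every 1,25(OH)2D3 library than in any vehicle library, against the 16.0% of all protein-coding genes, and 0 had fewer in every one. Their median was 6.5 peaks with 1,25(OH)2D3 and 3 with vehicle, against 2.33 and 1.33 over all protein-coding genes. The median difference between the means was 2.67 peaks for the 54 genes and 0.667 over all protein-coding genes. A total of 51 (94.4%) had a region in all 3 1,25(OH)2D3 libraries, against 61.1% of all protein-coding genes, and 37 (68.5%) had one in all 6, against 29.1%. The exceptions to the first count, named after their values were seen, were Acsl3, an acyl-CoA synthetase gene, Agpat6 and Cd36, a fatty acid receptor gene. Cd36 had 3, 2 and 2 peaks with 1,25(OH)2D3 and 1, 0 and 8 with vehicle.

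The wider-list genes with the highest numbers of regions common to the 1,25(OH)2D3 libraries were Dgat2 (11), whose window overlaps that of Mogat2, and Ppara (10). Ppara, the fatty acid sensing nuclear receptor, had 14, 17 and 18 peaks with 1,25(OH)2D3 and 4, 8 and 8 with vehicle, without overlap. Creb3l3, a transcription factor of apolipoprotein genes, had 7, 10 and 9 with 1,25(OH)2D3 and 2, 5 and 5 with vehicle. P4hb, which encodes the partner subunit of the microsomal transfer protein, had 10 in each 1,25(OH)2D3 library and 2, 6 and 5 in the vehicle libraries. The groups did not overlap at either of these genes. The wider-list genes described here were picked for regions common to the 1,25(OH)2D3 libraries, which favours higher counts with 1,25(OH)2D3. On the whole list, 13 of 54 genes had more peaks in every 1,25(OH)2D3 library than in any vehicle library. Abcg8, a sterol exporter subunit next to its partner Abcg5, had 7, 13 and 10 with 1,25(OH)2D3 and 3, 7 and 7 with vehicle, meeting at 7. Abcg5 shared these peaks and had 7, 11 and 9 with 1,25(OH)2D3 and 3, 7 and 6 with vehicle.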

How the data were processed

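The deposited data are 6 VDR ChIP-seq peak lists, 3 from mice given 1,25(OH)2D3 and 3 from mice given vehicle, grouped by their titles. Per the submitters' processing notes, the authors used Bowtie, HOMER and build mm9, and no versions are given in the sources used here. Per the file headers, HOMER ran in factor mode on every library by itself, with the same 1 input for all, a false discovery rate of 0.001, and at least 4-fold more tags and a Poisson p of at most 0.0001 relative to the input and to the surrounding 10 kb. The 1 input library, labelled with the hormone dose, entered no test here. The deposited score is 1 for every peak and ranks nothing, and the deposited start and end give a width fixed per library, so presence, absence and list order are what can be compared. The order follows the authors' peak numbers within chromosomes (median Spearman correlation per library from 0.854 to 0.994).

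Of the peaks, 5 outside the autosomes (1 to 19), X and Y were left out, and the rest were merged where they overlapped by 1 bp or more. Gene models were those of GENCODE M1 on NCBI build 37, which is mm9; 0 peaks ran past a chromosome end. Sequences were read from that genome, and the RefSeq promoter table, on a later build, was not used here. Distances are from a region's midpoint to the outermost annotated start. No 2 libraries shared a peak with identical coordinates. The DR3 consensus was searched within 100 bp of each midpoint. Group values were compared by exact two-sided permutation in scipy 1.17.1 under Python 3.11.15. Counting, merging and motif steps were tested on simulated data.

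The genes chosen by rule are the 10 listed genes and the 6 wider-list genes with the most regions in all 3 1,25(OH)2D3 libraries. Ties were taken in order of symbol (Abcg5 and Abcg8 were tied with others at 6). The regions in all 3 libraries of a group are all in the plot of list percentiles, but the text describes only some of them. It also describes other regions, such as those over the starts of Apoa4 and Fabp1. The regions described in the text were chosen by no fixed rule. The genes and lists were chosen with earlier results of these data known. Replicate numbers are shared by the groups. Same-numbered libraries deviated together in peaks per gene (correlations 0.407, 0.133 and 0.368), each above 0.1 and so treated as paired in the replicate block, but not in region presence (-0.113, 0.000983 and -0.184), and the labels give no reason for a pairing. Replicate 3 is deep in both groups. Alternatives were the distance window, the overlap, lists of equal length, the nearest start, leaving out libraries, depth classes and the replicate block.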

Additional observations from a re-analysis of the deposited data

How the results depend on the processing

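The difference in peaks near the 10 genes stayed positive under every alternative run: it was 13.0 with a window of 10 kb, 43.0 with 100 kb, 18.0 with peaks whose nearest start is a listed gene, and 0.667 with lists of equal length. It ranged from 20.8 to 36.8 when 1 library was left out, and was 32.0 among shallow and 23.0 between deep libraries. With the replicate block it was 29.0 peaks (exact paired permutation p = 0.25, the smallest 3 pairs can give), and the block changed no call.

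The difference in share, -0.00225 percentage points, is near 0 and changed sign in several settings. It was 0.00692 with 10 kb, 0.0076 with lists of equal length and 0.0734 between deep libraries, but -0.0401 among shallow libraries (exact permutation p = 0.333, the smallest for 2 against 2), and ranged from -0.053 (without vehicle replicate 3) to 0.0246 (without vehicle replicate 2), and was positive when 1,25(OH)2D3 replicate 1 (0.000236), 1,25(OH)2D3 replicate 3 (0.0106) or vehicle replicate 1 (0.0216) was left out. With the replicate block it was -0.00225 (exact paired permutation p = 1.0).

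The hormone-only count of 5 was 1 with 10 kb, 9 with 100 kb, 1 with lists of equal length and 17 among shallow libraries (the last chosen after seeing the data), and 5 to 16 when 1 library was left out. The count in all 6 libraries, 16, was 5 with 10 kb, 21 with 100 kb, 11 with lists of equal length and 16 to 21 without 1 library. It was 15 when peaks had to overlap by 50% of the shorter one. The count in all 3 vehicle libraries alone was 0, and 1 with lists of equal length. The number of genes without overlap, 4, was 2 with 10 kb, 0 with lists of equal length, 1 by nearest start and 4 to 6 without 1 library. A narrower window holds fewer regions by construction; for the other changes the cause was not tested. The DR3 share of 54.5% was 13.4% with at most 1 mismatch. For single genes, 93 of 100 differences were positive, 3 were 0 and 4 negative, the negative ones all with lists of equal length (Apob, Dgat1, Npc1l1 and Mogat2). In that setting Fabp1 was at 0, and Apoa1, Apoc3 and Apoa4 (2.67 each), Mttp (1.33) and Fabp2 (0.333) were positive. The 100 differences reuse the same lists and some genes share peaks, so they are not independent.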
